A study of Homo sapiens with 3 samples.

Results

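The genes described here encode proteins of the extracellular matrix and the integrins that bind them, with nephronectin (NPNT) among them. They were taken by symbol from a table of FPKM, which are fragment numbers scaled by transcript length and library depth: all collagen chains, all laminin chains, all integrin alpha and beta subunits, NPNT, SPARC and FN1. The rule gave 84 of the 21572 genes listed. They comprise 43 collagen chains, 12 laminin chains, 18 integrin alpha subunits, 8 integrin beta subunits and the 3 single genes.

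Total RNA came from Hep-G2, an established human hepatoma line, at passage 21 in each of 3 libraries, which held at least 46.6 M (mega) fragments each by estimate. The sh#7 line carried the FTO hairpin TRCN0000246247, the sh#2 line carried the FTO hairpin TRCN0000255402, and the control carried the control hairpin SHC002, which the series design calls a scramble. FTO is an RNA demethylase that acts on N6-methyladenosine, and the series design gives sh#7 as the more efficient knockdown. Each line gave 1 library, so differences have no replicate check and no test, and a hairpin's effect cannot be told apart from other differences between the cultures. The labels do not say whether a line is a pool or 1 clone. FTO itself was at 2.55 FPKM in sh#7, 5.29 FPKM in sh#2 and 9.02 FPKM in the control, an order that follows the labels.

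Integrins are pairs of 1 alpha and 1 beta subunit that span the membrane and link matrix proteins outside the cell to actin inside. Laminins are trimers of an alpha, a beta and a gamma chain and, with network-forming collagens, build the basement membrane. Hepatocytes are known as the source of plasma fibronectin, while most collagen of the liver comes from other cells. Nephronectin is a basement membrane ligand known from the mouse kidney, where it binds the integrin made of ITGA8 and ITGB1.

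Many integrins recognise the tripeptide arginine-glycine-aspartate. Reading frames of the principal GENCODE 29 transcripts were searched for its codons in the 17 matrix members whose mean reached 1 FPKM, and 11 held at least 1 run of them. These frames ran from 303 codons in SPARC to 3695 in LAMA5. The share over all genes was not counted, so the 11 is not a trait of integrin ligands, and a run is not evidence of binding. NPNT and FN1 held 1 run each, SPARC held 0, and COL4A6, LAMA5 and COL6A1 held 3, 2 and 3. The windows around the runs of NPNT and FN1 are shown because NPNT is the ligand with the widest difference between lines and control and FN1 the most abundant one. They lie at chr4:105942663-105942701 on the plus strand and chr2:215384036-215384095 on the minus strand of GRCh38, are read 5′ to 3′ within a single exon, and have the codons of the tripeptide in capitals.
NPNT: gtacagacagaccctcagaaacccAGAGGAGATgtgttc
FN1: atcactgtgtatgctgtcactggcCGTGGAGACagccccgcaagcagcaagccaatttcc

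COL4A5 and COL4A6 lie head to head on the X chromosome. In RefSeq on GRCh38.p14 their starts, taking the nearer of the 2 starts listed for COL4A6, were 379 bases apart, so the 250 bases upstream of each gene overlapped by 121 bases. Both are shown because these chains share a start region and their levels are set side by side below. The COL4A5 window is chrX:108439588-108439837 on the plus strand and the COL4A6 window is chrX:108439459-108439708 on the minus strand, with the shared bases in capitals.
COL4A5: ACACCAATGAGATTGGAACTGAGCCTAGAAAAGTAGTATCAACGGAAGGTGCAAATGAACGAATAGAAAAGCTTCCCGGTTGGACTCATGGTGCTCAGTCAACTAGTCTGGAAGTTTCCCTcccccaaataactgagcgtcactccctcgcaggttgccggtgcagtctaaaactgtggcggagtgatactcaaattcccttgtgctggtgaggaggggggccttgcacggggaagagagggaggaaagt
COL4A6: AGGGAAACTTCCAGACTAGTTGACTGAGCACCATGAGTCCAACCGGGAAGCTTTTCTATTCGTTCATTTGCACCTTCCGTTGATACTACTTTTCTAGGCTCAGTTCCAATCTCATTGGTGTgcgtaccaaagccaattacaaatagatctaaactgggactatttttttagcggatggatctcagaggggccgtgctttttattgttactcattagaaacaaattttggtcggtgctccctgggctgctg

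The upstream windows of NPNT and SPARC are shown because results below turn on these ligands. They lie at chr4:105895221-105895470 on the plus strand and chr5:151686916-151687165 on the minus strand. Each 250-base window was searched on both strands for GGGCGG (the core of a GC box), for TATAAA (the core of a TATA box) and for TGANTCA (a site of the kind bound by AP-1). Matches are in capitals, and none overlapped another in these windows.
NPNT: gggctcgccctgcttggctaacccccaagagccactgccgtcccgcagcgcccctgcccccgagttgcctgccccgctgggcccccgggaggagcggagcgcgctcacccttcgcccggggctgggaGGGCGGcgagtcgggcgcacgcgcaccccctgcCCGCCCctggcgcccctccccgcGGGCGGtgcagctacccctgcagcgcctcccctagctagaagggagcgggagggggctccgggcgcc
SPARC: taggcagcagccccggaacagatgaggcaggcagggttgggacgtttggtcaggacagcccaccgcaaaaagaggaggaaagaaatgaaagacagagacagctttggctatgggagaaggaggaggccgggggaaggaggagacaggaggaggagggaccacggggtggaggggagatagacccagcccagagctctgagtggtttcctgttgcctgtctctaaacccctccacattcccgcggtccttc

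The NPNT window held 3 matches to GGGCGG and the SPARC window held 0 to any of the 3 motifs. Among 35116 windows in the table, 42.6% held GGGCGG, 10.7% held TATAAA and 6.57% held TGANTCA. For the members, 22 of the 28 with a mean of at least 1 FPKM had an entry, with 29 starts in all, and 19 of those windows held GGGCGG, 4 held TATAAA and 1 held TGANTCA. A match describes letters in the window and is not evidence of binding.

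Levels differed widely among the members. Averaged over the 3 libraries, 28 of the 84 reached 1 FPKM, which are 9 collagen chains, 5 laminin chains, 7 integrin alpha subunits, 4 integrin beta subunits, NPNT, SPARC and FN1. ITGAL lay just inside this minimum with a mean of 1.17 FPKM and COL2A1 just outside it with 0.608 FPKM. Of the other 56 members, 14 were listed at 0 in every library and 40, these included, stayed below 0.1 FPKM in every library. NPNT, LAMA3 and ITGA3 were below 1 FPKM in the control, so they passed the minimum only through a knockdown line and had to be higher there.

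**Figure D1:**
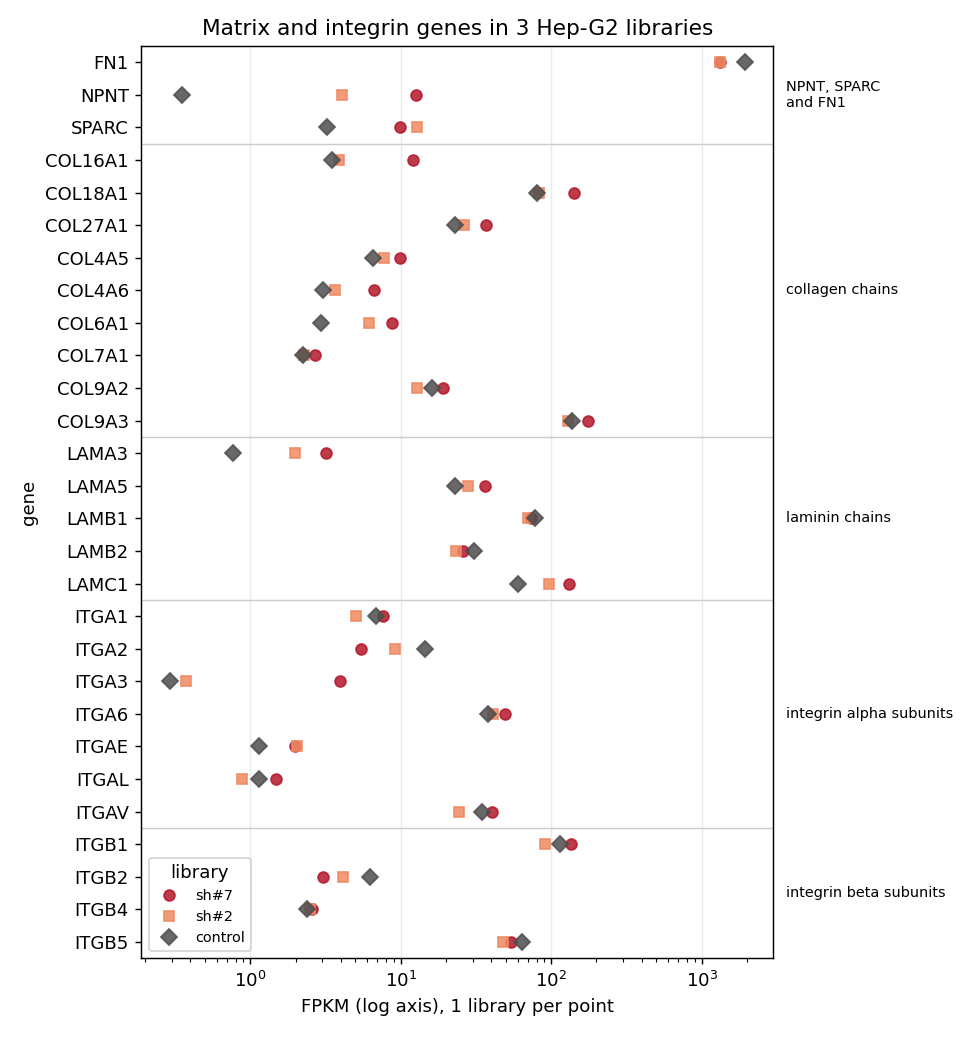
FPKM on a log axis of the 28 members with a mean of at least 1 FPKM, with 1 point per library (circle sh#7, square sh#2, diamond control) and genes grouped by role. FN1 lies at 1333, 1316 and 1933 FPKM in sh#7, sh#2 and control, and NPNT at 12.7, 4.05 and 0.349 FPKM.

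Differences were taken on the log2(FPKM + 1) scale, which understates the change of low genes, and genes whose difference came to 2-fold or more there were counted as higher or lower. In sh#7 against control, 7 of the 28 members were higher and 1 was lower, while of 11069 genes compared 2.35% were higher and 2.48% were lower. Without the 3 members below 1 FPKM in the control, 4 of 25 were higher in sh#7 and 1 of 25 in sh#2. In sh#2 against control, 2 of 28 were higher and 0 were lower, against 0.506% and 0.723% of all genes. Both were in the group of NPNT, SPARC and FN1, where 2 of 3 were higher. These 3 genes were named singly, with earlier results of these data known. The families gave 0 of 9 collagen chains, 0 of 5 laminin chains, 0 of 7 alpha subunits and 0 of 4 beta subunits. In sh#7 against sh#2, 3 of 28 were higher and 0 were lower, against 1.45% and 1.52% of all genes. These were NPNT, COL16A1 and ITGA3, of which ITGA3 reached the minimum mean only through sh#7 and had to be higher there. The members' median difference was 0.37, 0.05 and 0.41 in these comparisons, beside 0.16, 0.10 and 0.05 over all genes; the 0.05 for sh#2 turned to -0.05 and -0.03 under the 2 other scalings tried. The first 2 comparisons share the control library. In bulk RNA, fewer cells of a type and less RNA per cell cannot be told apart.

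**Figure D2:**
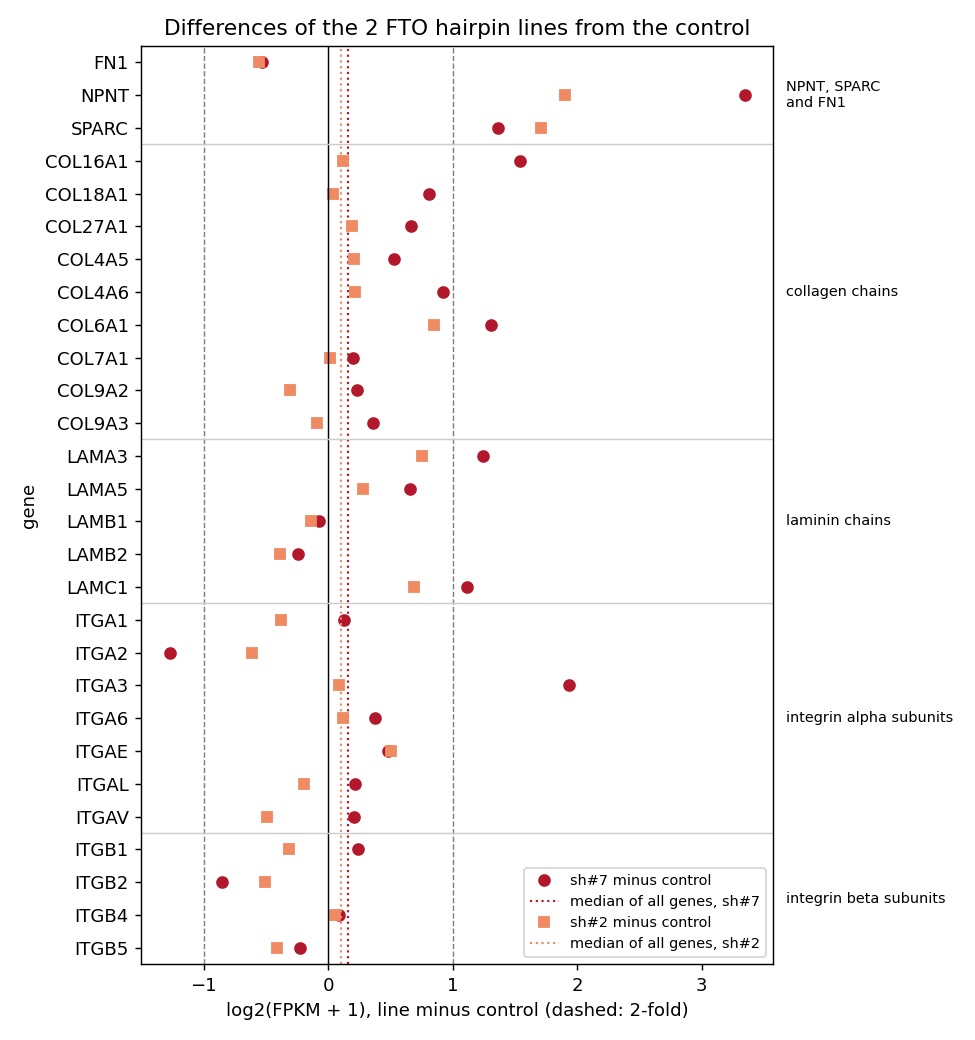
Difference from the control on the log2(FPKM + 1) scale for the 28 members in sh#7 (circles) and sh#2 (squares), with dashed lines at 2-fold and dotted lines at the medians of all genes, 0.16 and 0.10. NPNT lies farthest right in both lines, at 3.34 in sh#7 and 1.91 in sh#2, and ITGA2 farthest left in sh#7, at -1.27.

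NPNT was at 12.7 FPKM in sh#7, 4.05 FPKM in sh#2 and 0.349 FPKM in the control. Both lines lay above the control and sh#7 above sh#2. In linear FPKM, sh#7 was 36.4 times the control (95% interval 28.95 to 47.1) and sh#2 was 11.6 times the control (9.17 to 15.1). These intervals, like those below, are exact (Clopper-Pearson) on fragment numbers estimated from FPKM, transcript length and depth, and cover counting error only. About 2602, 855 and 71 fragments lay behind the 3 values. The gene of its known partner in the kidney, ITGA8, was listed at 0 in every library, while ITGB1 was abundant.

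SPARC, a secreted collagen-binding protein that modulates how cells attach to matrix, was at 9.87 FPKM in sh#7, 12.8 FPKM in sh#2 and 3.22 FPKM in the control. Here too both lines were above the control, but sh#2 was the highest library. The ratio to the control was 3.07 in sh#7 (2.77 to 3.39) and 3.97 in sh#2 (3.60 to 4.37). Transcripts on the opposite strand overlap 7.89% of the exon bases of SPARC (CLMAT3) and 3.97% of those of NPNT (AC109361.1) in GENCODE 29, and without known strand their reads cannot be told apart.

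FN1, which encodes fibronectin, was the most abundant member, at 1333 FPKM in sh#7, 1316 FPKM in sh#2 and 1933 FPKM in the control. It was lower in both lines, with log2 differences of -0.54 in sh#7 and -0.55 in sh#2, neither of them 2-fold. Its level in sh#7 was 1.01 times that in sh#2 (1.009 to 1.017). FN1 made up 56.8% of the summed FPKM of the 84 members in sh#7, 63.9% in sh#2 and 71.9% in the control.

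All 9 collagen chains with a mean of at least 1 FPKM were higher in sh#7 than in the control and in sh#2, also under both other scalings, and 2 of the 9 passed 2-fold against the control. Of all 11069 genes, 7438 were above the control in sh#7 and 6338 were above sh#2, before any other scaling. Their median difference in sh#7 was 0.66, beside 0.16 over all genes. In sh#2 the median was 0.12, beside 0.10, and 7 of 9 were above the control, as were 7436 of 11069 genes, a share close to that; the 7 became 5 of 9 under either scaling. The summed FPKM of the 43 chains, as deposited, was 416 in sh#7, 277 in sh#2 and 277 in the control. Such sums depend on scaling. Of 30 ratios of group sums between libraries under the other scalings, 30 left their counting interval.

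COL16A1, a collagen found on the surface of fibrils, was at 12.1 FPKM in sh#7, 3.89 FPKM in sh#2 and 3.49 FPKM in the control. Only the sh#7 library stood out for this gene, at 3.46 times the control (3.21 to 3.73) and 3.11 times sh#2 (2.89 to 3.33). COL6A1, a chain of the beaded filaments around cells, was at 8.79 FPKM in sh#7, 6.16 FPKM in sh#2 and 2.97 FPKM in the control. Both lines were above the control for COL6A1, at 2.96 times (2.69 to 3.27) in sh#7 and 2.08 times (1.88 to 2.30) in sh#2, where the sh#2 log2(FPKM + 1) difference was 0.85, and 1.03 with a pseudocount of 0.1. The chains known to join COL6A1 were scarce: COL6A2 was at 0.525, 0.188 and 0.225 FPKM in sh#7, sh#2 and control, and COL6A3 was below 0.01 FPKM in each.

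COL4A6 was at 6.62 FPKM in sh#7, 3.66 FPKM in sh#2 and 3.02 FPKM in the control. COL4A5, whose start region it shares, was at 9.86 FPKM in sh#7, 7.71 FPKM in sh#2 and 6.54 FPKM in the control. Both chains, which form basement membrane networks together, had the same order of libraries. COL4A6 in sh#7 was 2.19 times the control in linear FPKM (2.02 to 2.37), while its log2(FPKM + 1) difference of 0.92 was not counted as higher; with a pseudocount of 0.1 it was 1.11. The ratio of COL4A5 to COL4A6 was 1.49 in sh#7, 2.11 in sh#2 and 2.17 in the control. The broadly expressed network chains were low or at 0, with COL4A1 listed at 0 in every library and COL4A2 at 0.160, 0.0970 and 0.0706 FPKM in sh#7, sh#2 and control.

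The most abundant collagen chains were COL9A3 and COL18A1. COL9A3, known as a cartilage collagen, was at 177 FPKM in sh#7, 129.6 FPKM in sh#2 and 138 FPKM in the control. COL18A1, a basement membrane collagen and the precursor of endostatin, was at 141 FPKM in sh#7, 82.5 FPKM in sh#2 and 80.2 FPKM in the control. For COL18A1 the sh#7 library stood at 1.76 times the control (1.73 to 1.79) and the others were close together; 16.4% of its exon bases overlap SLC19A1 on the opposite strand, and the labels do not say whether strand was used. Of the other chains, the fibrillar collagen gene COL27A1 was at 36.8, 26.3 and 22.9 FPKM in sh#7, sh#2 and control, COL9A2 at 19.2, 12.9 and 16.2 FPKM, and the anchoring fibril gene COL7A1 at 2.71, 2.27 and 2.23 FPKM. COL9A1, the partner of COL9A2 and COL9A3 in cartilage, did not exceed 0.0150 FPKM.

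The laminin chains went apart by chain type. LAMC1, the widely used gamma chain, was at 130.5 FPKM in sh#7, 97.2 FPKM in sh#2 and 59.8 FPKM in the control. Both lines exceeded the control, at 2.18 times (2.15 to 2.22) in sh#7 and 1.63 times (1.60 to 1.65) in sh#2; the log2 difference of 1.11 in sh#7 became 0.93 and 0.99 under the 2 other scalings and no longer reached 2-fold. LAMB1, the most abundant beta chain, was at 73.4 FPKM in sh#7, 70.5 FPKM in sh#2 and 77.6 FPKM in the control, close to level. LAMB2 was at 25.8, 23.2 and 30.7 FPKM in sh#7, sh#2 and control. The ratio of LAMC1 to LAMB1, which does not depend on scaling, was thus 1.78 in sh#7, 1.38 in sh#2 and 0.771 in the control.

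Alpha chains were the scarcest type. LAMA5, the alpha chain of a common laminin of adult basement membranes, was at 36.5 FPKM in sh#7, 27.9 FPKM in sh#2 and 22.8 FPKM in the control. LAMA3, an alpha chain known from epithelial attachment to the basement membrane, was at 3.20 FPKM in sh#7, 1.98 FPKM in sh#2 and 0.772 FPKM in the control. Both had the library order of LAMC1, and LAMA3, which reached the minimum mean only through the knockdown lines, was at 4.15 times the control (3.71 to 4.66) in sh#7 and 2.56 times (2.28 to 2.90) in sh#2. On the log2(FPKM + 1) scale its difference was 1.25 in sh#7 and 0.75 in sh#2, and with a pseudocount of 0.1 the sh#2 difference was 1.25. Alpha chains summed to 39.8 FPKM in sh#7, 29.96 FPKM in sh#2 and 23.6 FPKM in the control, beside gamma chain sums of 130.5, 97.3 and 59.9 FPKM. LAMB3, a beta chain that joins LAMA3 in skin, was scarce, at 0.647, 0.1004 and 0.105 FPKM in sh#7, sh#2 and control. The median difference of the 5 laminin chains was 0.66 in sh#7, beside 0.16 over all genes, and 0.28 in sh#2, beside 0.10; at a minimum mean of 5 FPKM, which drops LAMA3, it was 0.29 in sh#7 and 0.072 in sh#2.

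**Figure D3:**
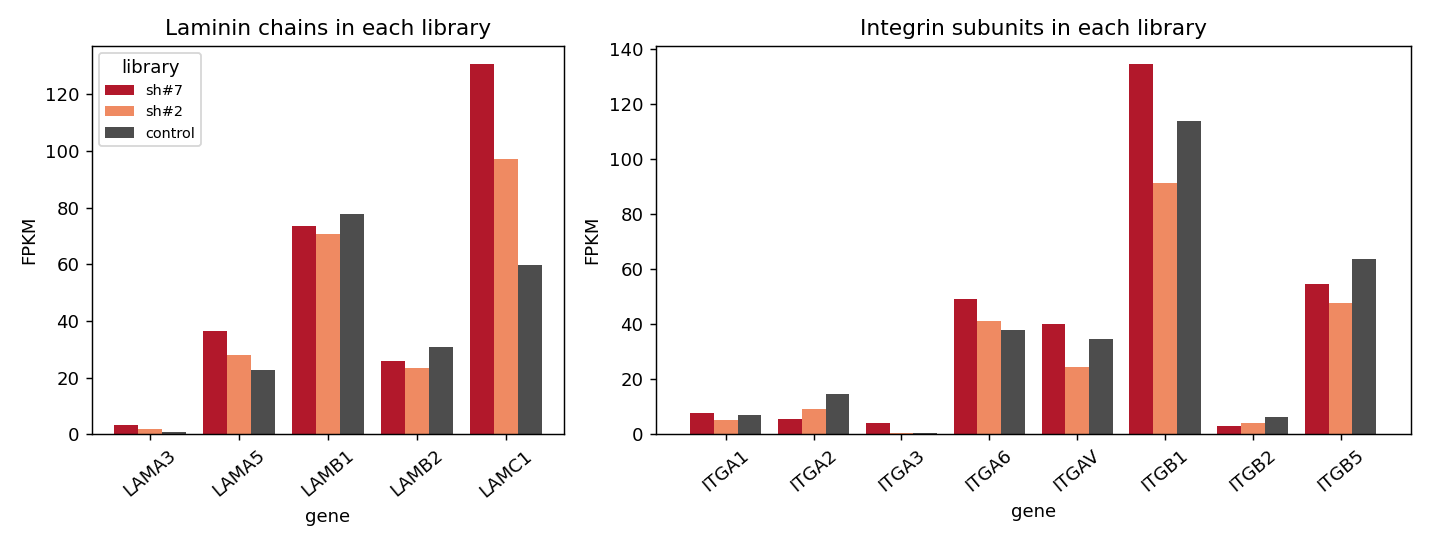
FPKM of laminin chains (left) and of integrin subunits (right) as bars from 0, 1 library per bar, in the order sh#7, sh#2, control. LAMC1 bars reach 130.5, 97.2 and 59.8 FPKM while LAMB1 bars lie between 70.5 and 77.6 FPKM; ITGB1 is the highest integrin gene in every library.

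Among integrin alpha subunits, ITGA6 and ITGAV were the most abundant in every library. ITGA6, a subunit of laminin receptors, was at 49.3 FPKM in sh#7, 41.1 FPKM in sh#2 and 37.8 FPKM in the control. ITGAV, a subunit of receptors for the tripeptide above, was at 40.2 FPKM in sh#7, 24.4 FPKM in sh#2 and 34.8 FPKM in the control. The libraries thus had different orders for the 2 genes, with sh#2 lowest for ITGAV, and neither gene reached 2-fold. Together they made up 44.2% and 36.1% of the summed alpha subunits in sh#7, 48.9% and 29.04% in sh#2, and 38.5% and 35.5% in the control.

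ITGA3 and ITGA2 differed most. ITGA3, another subunit of laminin receptors, was at 3.93 FPKM in sh#7, 0.374 FPKM in sh#2 and 0.293 FPKM in the control. The sh#7 library alone was high, at 13.4 times the control (10.4 to 17.6) and 10.5 times sh#2 (8.41 to 13.3), with about 859, 84 and 64 fragments behind the values. For sh#2 against control the interval, 0.910 to 1.79, included 1. ITGA2, a subunit of a collagen receptor, was at 5.44 FPKM in sh#7, 9.15 FPKM in sh#2 and 14.5 FPKM in the control. It was the 1 member counted as lower in sh#7 on the log2(FPKM + 1) scale, with a difference of -1.27. In linear FPKM it was at 0.375 times the control (0.355 to 0.395) in sh#7 and 0.629 times (0.603 to 0.657) in sh#2. ITGA1, the other collagen receptor subunit measured above 1 FPKM, was at 7.59, 5.04 and 6.87 FPKM in sh#7, sh#2 and control. The median difference of the 7 alpha subunits was 0.21 in sh#7 and -0.19 in sh#2, beside 0.16 and 0.10 over all genes.

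None of the 4 beta subunits passed 2-fold on the log2(FPKM + 1) scale in any comparison, though ITGB2 did so with other settings. Few genes of any kind passed it. Of all genes compared, 2.35% were higher and 2.48% lower in sh#7 than the control. The shares were 0.506% and 0.723% in sh#2, and 1.45% and 1.52% in sh#7 against sh#2. None of 4 is thus no trait of the beta subunits. Their median difference was -0.07 in sh#7 and -0.36 in sh#2, beside 0.16 and 0.10 over all genes. ITGB1, the common partner of the laminin and collagen receptor subunits, was at 134 FPKM in sh#7, 91.5 FPKM in sh#2 and 114 FPKM in the control. ITGB5, a partner of ITGAV, was at 54.4 FPKM in sh#7, 47.6 FPKM in sh#2 and 63.8 FPKM in the control. ITGB4, which pairs with ITGA6 in hemidesmosomes, was level at 2.58, 2.51 and 2.37 FPKM, and the intervals of both lines against control, 0.973 to 1.21 in sh#7 and 0.947 to 1.18 in sh#2, included 1. The summed beta subunits were 1.75, 1.74 and 1.90 times the summed alpha subunits in sh#7, sh#2 and control.

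ITGB2, known from leukocytes, was lower in both lines, at 3.02 FPKM in sh#7, 4.10 FPKM in sh#2 and 6.27 FPKM in the control. In sh#7 it was 0.481 times the control in linear FPKM (0.428 to 0.542). Its log2(FPKM + 1) difference in sh#7 was -0.86, which became -1.01 under median-of-ratios scaling and -1.03 with a pseudocount of 0.1, both past 2-fold. ITGAL, its partner in leukocytes, was at 1.49, 0.882 and 1.15 FPKM in sh#7, sh#2 and control, an order that differs from that of ITGB2. ITGAE, which pairs with ITGB7 on lymphocytes, was at 1.99, 2.04 and 1.14 FPKM, while ITGB7 was at 0.0507, 0.0896 and 0.125 FPKM. PTPRC and CD3E, which mark leukocytes and T cells, were listed at 0 in every library. The 7 blood and immune markers summed to 322 FPKM in sh#7, 1354 FPKM in sh#2 and 3258 FPKM in the control, nearly all of it LYZ (lysozyme) at 297, 1321 and 3216 FPKM, and their part in the ITGB2 values was not tested. The exons of ITGAE, ITGAL and ITGB2 overlap other genes on the opposite strand over 6.41%, 6.41% and 4.46% of their bases for the largest overlap of each.

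Members below a mean of 1 FPKM are given as levels only. None of these 56 reached 1 FPKM in any library, and those named here were named after their values were seen. ITGB3, the beta subunit of platelet and endothelial receptors, was at 0.656 FPKM in sh#7, 0.223 FPKM in sh#2 and 0.0183 FPKM in the control, from about 116, 41 and 3 fragments. COL1A1, a chain of the main fibrillar collagen, was at 0.578 FPKM in sh#7, 0.102 FPKM in sh#2 and 0.0149 FPKM in the control, while its partner COL1A2 was listed at 0 throughout. ITGA5, a subunit of the classic fibronectin receptor, was at 0.622 FPKM in sh#7, 0.202 FPKM in sh#2 and 0.142 FPKM in the control. In these 3 genes, as in LAMB3, COL6A2 and ITGA7, sh#7 was the highest library. ITGA7 was at 0.264, 0.164 and 0.203 FPKM in sh#7, sh#2 and control. COL2A1 was highest in sh#2, at 0.625, 0.780 and 0.419 FPKM in sh#7, sh#2 and control, and ITGA2B, ITGA10 and COL11A2 were highest in the control.

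**Figure D4:**
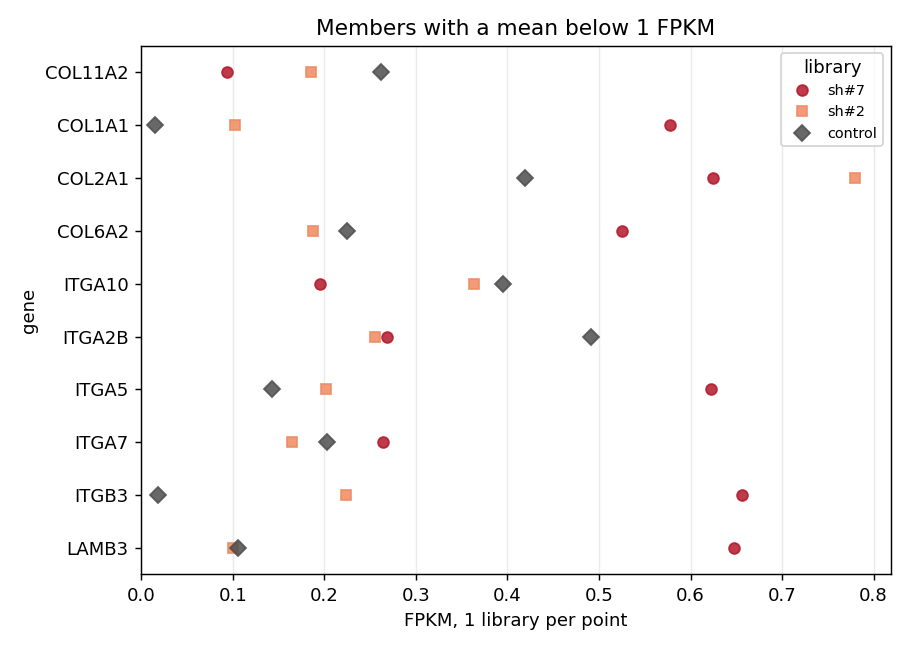
FPKM on a linear axis from 0 of the 10 members whose mean was below 1 FPKM and that reached 0.2 FPKM in at least 1 library, with 1 point per library. COL1A1, COL6A2, ITGA5, ITGB3 and LAMB3 lie above 0.5 FPKM in sh#7 and below 0.3 FPKM in sh#2 and control.

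Markers of cell types were read beside these values. All 7 hepatocyte markers averaged 1 FPKM or more, and their sum was 6206 FPKM in sh#7, 12265 FPKM in sh#2 and 13483 FPKM in the control. Of 9 fibroblast and stellate cell markers, 2 (ACTA2 and PDGFRB) had a mean of at least 1 FPKM and 5 (THY1, DCN, LUM, POSTN and LRAT) were listed at 0 in every library. The 9 summed to 52.2, 35.3 and 44.0 FPKM in sh#7, sh#2 and control, nearly all of it ACTA2 at 51.5, 33.6 and 40.2 FPKM. PDGFRB had another order, at 0.616, 1.69 and 3.76 FPKM. The 6 endothelial markers summed to 0.271, 0.325 and 0.216 FPKM. The 5 biliary and progenitor markers summed to 595 FPKM in sh#7, 473 FPKM in sh#2 and 365 FPKM in the control, and they had no common order. KRT19 was at 324, 243 and 143.5 FPKM, EPCAM at 211, 159 and 143 FPKM and KRT7 at 1.57, 0.0280 and 0.0141 FPKM, while SOX9 was at 59.1, 69.5 and 77.3 FPKM and PROM1 at 0.117, 1.45 and 0.532 FPKM. The part of these markers in the results was not tested.

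Of the other matrix and adhesion genes, 139 in 10 lists were compared. In sh#7, 14 were higher and 18 lower than the control, and in sh#2, 2 were higher and 5 lower, so the lists went both ways. Of the 14, TNS4, PAK1 and PLAU were below 1 FPKM in the control and reached the minimum mean only through the knockdown lines. Of the 18, ADAMTS2, GLT25D2, FREM1 and FGB were below 1 FPKM in sh#7 and reached the minimum mean only through the other libraries. The shares over all genes stand above. In sh#7 against sh#2, 6 were higher and 11 lower. The median of the 139 was 0.09 in sh#7, beside 0.16 over all genes, and turned to -0.08 and -0.01 under the other scalings.

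By their median, genes for folding and modifying collagen went the other way from the chains in sh#7, but not all did. BMP1, LOXL4, MIA3, CRTAP, GLT25D1, SERPINH1 and LEPREL4, named after their values were seen, lay above the control there. Their differences ran from 0.03 (LEPREL4) to 0.56 (BMP1), and the rest of the list lay below the control. Of 26, 0 were higher and 5 lower than the control, with a median of -0.52 beside 0.16 over all genes; in sh#2, 1 was higher and 1 lower, with a median of -0.13 beside 0.10. LOX, which crosslinks collagen and elastin, was at 13.7 FPKM in sh#7, 17.1 FPKM in sh#2 and 42.7 FPKM in the control. ADAMTS2, which trims procollagen, was at 0.282 FPKM in sh#7, 7.39 FPKM in sh#2 and 4.82 FPKM in the control, and PCOLCE2, an enhancer of procollagen processing, at 0.166, 5.13 and 1.09 FPKM. PCOLCE2 had a log2(FPKM + 1) difference of -0.84 in sh#7 and is not among the 5 lower genes. Beside LOX and ADAMTS2 these were P4HA1, PLOD2 and GLT25D2, named after their values were seen, which hydroxylate or glycosylate collagen. PLOD2 was at 62.5, 89.4 and 132 FPKM in sh#7, sh#2 and control. ADAMTS2 and GLT25D2 (0.457 FPKM) were below 1 FPKM in sh#7 and reached the minimum mean only through the other libraries. At a minimum mean of 5 FPKM, 3 genes of this list were lower in sh#7 than the control.

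Among 15 other secreted integrin ligands, 1 was higher and 5 lower in sh#7, and 0 were higher and 1 lower in sh#2. Fibrinogen chains stood apart in sh#7 only. FGA was at 3.96 FPKM in sh#7, 219 FPKM in sh#2 and 259.7 FPKM in the control, FGB at 0.662, 34.6 and 28.6 FPKM, and FGG at 10.6, 454 and 419.6 FPKM. The fifth lower gene, named after its values were seen, was VTN (vitronectin). CTGF, also placed among matricellular proteins, was at 57.4 FPKM in sh#7, 84.5 FPKM in sh#2 and 186 FPKM in the control. The matricellular list had 5 compared genes, of which 1 was higher and 2 lower in sh#7, against 0 and 2 for sh#2. THBS1, a thrombospondin that binds CD47 and integrins, was at 64.0 FPKM in sh#7, 33.8 FPKM in sh#2 and 16.6 FPKM in the control, the same order as NPNT. SPOCK2, a proteoglycan of the SPARC family, was at 6.62, 20.2 and 46.9 FPKM, the reverse order.

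Other basement membrane genes were split, with 2 of 9 higher and 2 lower in sh#7 and 0 past 2-fold in sh#2. NTN4, a netrin that binds laminin gamma chains, was at 12.4 FPKM in sh#7, 9.81 FPKM in sh#2 and 4.44 FPKM in the control. FREM1, which anchors skin to its basement membrane, was at 0.704, 4.12 and 7.60 FPKM in sh#7, sh#2 and control, and the fibulin gene FBLN1 at 59.7, 122 and 142 FPKM. The other gene higher in sh#7, named after its values were seen, was HSPG2, which encodes perlecan, at 16.8, 6.18 and 7.21 FPKM in sh#7, sh#2 and control.

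Of 22 proteins that tie integrins to actin, 1 was higher and 1 lower in sh#7, against 0 and 1 for sh#2. Most genes of any kind stayed within 2-fold. Over all genes 2.35% were higher and 2.48% lower in sh#7, and 0.506% and 0.723% in sh#2. Counts this small do not set the list apart. TNS1, a tensin that binds integrin tails, was lower in both lines, at 3.59 FPKM in sh#7, 2.71 FPKM in sh#2 and 8.68 FPKM in the control, while TNS4 was at 2.69, 1.89 and 0.767 FPKM. The adhesion protein gene ZYX was at 64.9, 52.8 and 33.2 FPKM. Of 20 kinases and adaptors of focal adhesions, 1 was higher in sh#7, the kinase gene PAK1 at 3.05, 1.58 and 0.761 FPKM, and 0 were past 2-fold in sh#2. The related scaffold genes went apart, with NEDD9 at 45.7, 78.0 and 89.6 FPKM in sh#7, sh#2 and control, and BCAR1 at 29.2, 22.5 and 20.5 FPKM.

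Non-integrin matrix receptors had 1 of 11 higher and 1 lower in sh#7, against 0 and 1 for sh#2. DAG1, the laminin receptor dystroglycan, was at 91.8 FPKM in sh#7, 47.7 FPKM in sh#2 and 39.7 FPKM in the control. Of the tetraspanins, CD9 was at 11.5, 9.37 and 25.9 FPKM in sh#7, sh#2 and control, below the control past 2-fold in both lines, and TSPAN4 at 11.3, 13.2 and 19.4 FPKM. Of 9 proteoglycan genes, 1 was higher and 1 lower in sh#7, and 0 passed 2-fold for sh#2. GPC1, a glypican, was at 22.4, 8.61 and 7.502 FPKM, TGFBR3, also called betaglycan, at 6.83, 34.9 and 53.9 FPKM, and SDC3, a syndecan, at 3.29, 1.10 and 1.38 FPKM in sh#7, sh#2 and control.

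Matrix proteases and inhibitors had 3 of 14 higher and 2 lower in sh#7 and 0 past 2-fold in sh#2. TIMP3, a metalloprotease inhibitor among the lower genes, was at 5.52, 21.7 and 30.8 FPKM in sh#7, sh#2 and control. MMP17, a membrane-bound metalloprotease, was at 6.001, 5.03 and 2.07 FPKM, and the other 2 higher genes, named after their values were seen, were PLAU and TIMP2. Among 16 genes of transforming growth factor beta signalling, 4 were higher and 1 lower in sh#7, and 1 higher and 0 lower in sh#2. BAMBI, a decoy receptor, was at 44.9, 26.0 and 15.9 FPKM, and INHBE at 11.3, 15.3 and 6.58 FPKM. The other 3 higher in sh#7, named after their values were seen, were SKIL, SMAD6 and SMAD7. SMAD7 was at 36.3, 13.0 and 11.7 FPKM in sh#7, sh#2 and control.

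**Figure D5:**
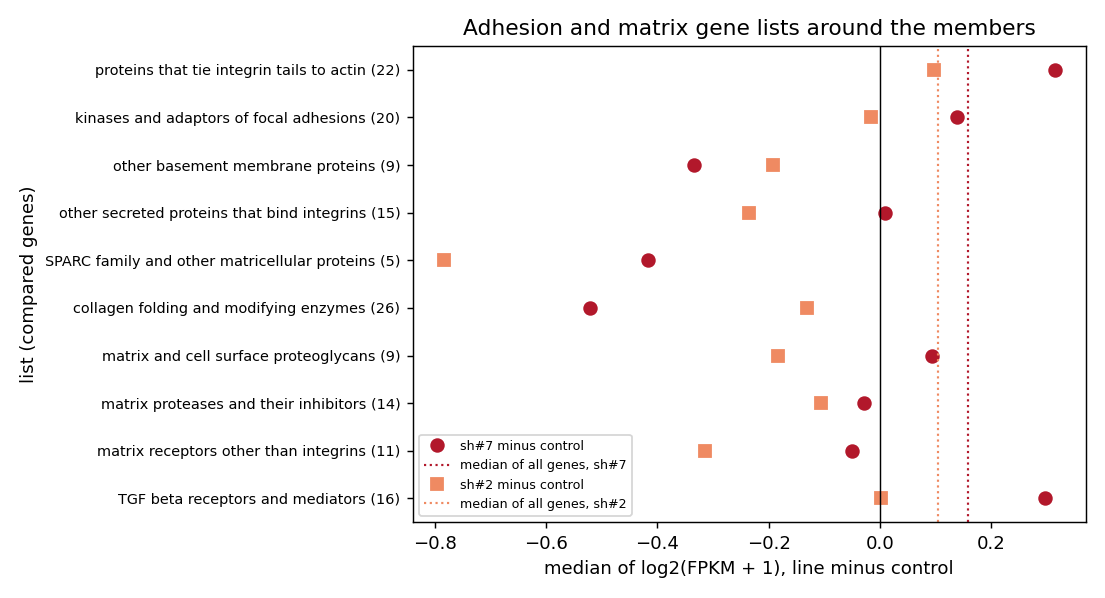
Median difference from the control on the log2(FPKM + 1) scale of the 10 other lists in sh#7 (circles) and sh#2 (squares), with the number of compared genes in brackets and dotted lines at the medians of all genes. In sh#7 the collagen folding and modifying enzymes lie lowest, at -0.52, and the proteins that tie integrins to actin highest, at 0.31.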

How the data were processed

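RNA was measured in 3 Hep-G2 libraries, 1 per group. The authors deposited 1 table of FPKM values per gene; the tools named are Cufflinks 2.2.1, HTSeq and STAR 2.4.0j and the build hg19, per the submitters' processing notes, with no role for each. FPKM divides by the mapped total, so abundant genes shift the others: the 100 highest genes held 28.98% of FPKM in sh#7, 31.3% in sh#2 and 34.7% in the control.

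A count model was not applied to FPKM. Differences were log2(FPKM + 1) of 1 library minus another for the 11069 genes averaging 1 FPKM or more, and a 2-fold size was used as a description. Depth was estimated from single-fragment steps of 1880 genes with 1 GENCODE 29 transcript over 800 nt, with 200 nt taken off each length, at about 46.6 M (mega) fragments in sh#7, 48.0 M in sh#2 and 46.6 M in the control. Members' lengths were those of principal transcripts, newer than the authors' annotation, so intervals (95%, exact, counting error only) are approximate. In the table, 26 symbols had become calendar dates and were not named. All 84 members matched GENCODE. Of 257 list entries, 254 were found.

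Every member averaging 1 FPKM or more is named. From each other list, the 3 compared genes with the largest mean absolute difference, and any past 2-fold in both lines, are named, except where a gene is not reported here. The members and lists were chosen with earlier results of these data known. Calculations were tested on simulated data and used Python 3.11.15, pandas 2.3.3, numpy 2.4.6 and scipy 1.17.1. Alternatives were a pseudocount of 0.1, a minimum mean of 5 FPKM, no filter, median-of-ratios scaling, upper-quartile scaling and a 1.5-fold threshold.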

Additional observations from a re-analysis of the deposited data

Results flagged for a closer look

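In 6 members sh#7 lay above the control and sh#2 below it by more than counting error in FPKM as deposited, a difference that was not tested. The share of all genes that did so was not counted. On the log2(FPKM + 1) scale sh#7 exceeded sh#2 by 0.70 in ITGAV, 0.55 in ITGB1, 0.54 in COL9A2, 0.51 in ITGA1, 0.44 in COL9A3 and 0.40 in ITGAL. The lines kept opposite sides of the control in all 6 under upper-quartile scaling and in 5 under median-of-ratios scaling. Under the latter, ITGA1 in sh#7 was at -0.04 and the others ran from 0.02 (ITGAV) to 0.17 (COL9A3). Counting intervals were not computed for scaled values.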

How the results depend on the processing

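No paired analysis was possible because there is a single library per line, and for the same reason no replicate was left out. Shares of all genes past a threshold were counted in the main setting only, so the counts below have none beside them.

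With a pseudocount of 0.1, 2 members were lower in sh#7 than control and 4 were higher in sh#2, and 7 other-list genes were higher in sh#2 than control and 10 higher in sh#7 than sh#2; medians were 1.59 in sh#7 and 1.96 in sh#2 for NPNT, SPARC and FN1, and 0.58 for alpha subunits in sh#7 against sh#2.

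At a minimum mean of 5 FPKM, which leaves fewer genes, 9 other-list genes were higher in sh#7 and 1 in sh#2 than control, and 7 were lower in sh#7 than sh#2. Laminin medians were 0.29 in sh#7, 0.072 in sh#2 and 0.26 for sh#7 against sh#2, the alpha subunit median was 0.17 in sh#7, and the beta subunit median was 0.37 for sh#7 against sh#2.

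Without a filter, which adds members at or near 0, medians were nearer 0. For sh#7 against control they were 0 over members and over collagens, 0.0044 for laminins and 0.039 for alpha subunits. For sh#2 they were 1.5e-05 for collagens, 0.0026 for laminins and -0.025 for beta subunits. For sh#7 against sh#2 they were 0.0014 over members, 0 for collagens, 0.040 for laminins and 0.012 for alpha subunits.

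Under median-of-ratios scaling 2 members were lower in sh#7 than control. Medians for sh#7 were 0.18 over members, 1.21 for NPNT, SPARC and FN1, 0.48 for collagens, 0.48 for laminins, 0.11 for alpha and -0.23 for beta subunits. For sh#2 they were 0.17 for laminins and -0.48 for beta subunits, and for sh#7 against sh#2 -0.050 for NPNT, SPARC and FN1, 0.40 for collagens and 0.31 for laminins. Under upper-quartile scaling medians for sh#7 were 0.24 over members, 0.54 for collagens, 0.54 for laminins, 0.14 for alpha and -0.18 for beta subunits. For sh#2 they were 0.19 for laminins and -0.45 for beta subunits, and for sh#7 against sh#2 -0.016 for NPNT, SPARC and FN1 and 0.34 for laminins. These scalings moved the median of all genes in sh#7 from 0.16 to -0.01 and 0.05.

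At 1.5-fold, members higher and lower were 11 and 2 for sh#7 against control, 5 and 1 for sh#2, and 6 and 1 between sh#7 and sh#2. The other lists had 24 and 28, 9 and 13, and 26 and 17. The 2-fold shares of all genes do not apply to these counts. Of 252 values of single members under the other pseudocount or scalings, 109 left their counting interval, which covers counting error only. Of the 13 member differences past 2-fold, 0 changed sign in any of these settings. Of the other 71, 8 changed sign under median-of-ratios scaling, 5 under upper-quartile scaling and 0 with a pseudocount of 0.1. Counting depth limits the low members most.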
